A study of Mus musculus with 12 samples.

Results

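CD4 intraepithelial lymphocytes (IEL) and CD8αβ IEL of the mouse small intestine were compared here, with 3 libraries against 3 out of the 12 RNA-seq libraries in the series. The members were taken by their labels, as the libraries of sorted TCRβ CD4+ cells and of sorted TCRβ CD8αβ+ cells. Both kinds of cell came from Rag2-/- hosts. Such mice lack their own T and B lymphocytes but keep NK cells, innate lymphoid cells and myeloid cells. Each host was given at least 2000000 conventional T cells in a single intravenous injection, either CD4+ or CD8αβ+, from lymph nodes of donors that were wild type for Themis. The gut was taken 1 week later. The other 6 libraries held TCRβ CD8αα+ IEL from the same kinds of host, 3 from hosts given CD4 cells (CD8αα from CD4) and 3 from hosts given CD8αβ cells (CD8αα from CD8αβ). They entered the statistical model and 1 further comparison below. The labels give no age or sex of the animals. Whether each replicate was a different animal is not stated, and p-values here reflect the scatter among these libraries, which may be technical.

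As background, IEL are T cells that live between the epithelial cells of the gut lining. CD4 T cells are known as helpers, which act on other cells through cytokines and through the surface ligand CD40L, and which split into types such as Th1 (T-bet, interferon-γ), Th17 (IL-17, IL-22), Th2 (GATA3) and regulatory T cells (FOXP3). CD8 T cells are known as killers, which carry granzymes and perforin in granules, read stress ligands and MHC class I through NK-type receptors, and release CCL chemokines. In the gut epithelium some CD4 T cells are known to lose the factor ThPOK (encoded by Zbtb7b), take up RUNX3 and T-bet and acquire granzymes.

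Library totals were 6381733 to 8595847 counts in CD4 IEL and 6099918 to 9443881 counts in CD8αβ IEL, and 12838 to 14085 genes had at least 1 count. Levels are in CPM, the count scaled to a common library total, listed in the order of replicates 1, 2 and 3. They are not divided by gene length, so they compare samples and not genes. A count of 0 allows a level of up to 3 counts, or 0.318 to 0.492 CPM, and this limit covers counting error only. The transcripts of the sorted proteins matched the labels in all 6 libraries. Cd4 (ENSMUSG00000023274, chromosome 6, 124864692 to 124888221 in mm10) was at 1749, 1583 and 1593 CPM in CD4 IEL and 11.6, 42.3 and 15.8 CPM in CD8αβ IEL. Cd8a (ENSMUSG00000053977, chromosome 6, 71373427 to 71379171), which encodes CD8α, was at 45.7, 48.4 and 47.6 CPM in CD4 IEL and 2174, 2224 and 2085 CPM in CD8αβ IEL. Cd8b1 (ENSMUSG00000053044, chromosome 6, 71322836 to 71337477), the β chain, was at 6.98, 4.44 and 3.74 CPM in CD4 IEL and 1167, 1087 and 1119 CPM in CD8αβ IEL. These values check the sort and the labels and are not findings. Genes that mark T cells were well above the floor, with Cd3e at 403 to 639 CPM and Lck at 1938 to 2478 CPM over the 6 libraries, while the B cell genes Ms4a1 and Pax5 had 0 counts. The TCRβ part of the label was not checked here. In the 6 libraries labelled CD8αα, Cd3e, a chain of the T cell receptor complex, was at 3.21 to 22.2 CPM, while Cd3g of the same complex was at 1902 to 3780.5 CPM, so the low level goes against the TCRβ label. A fit of the 6 CD4 IEL and CD8αβ IEL libraries alone is therefore given beside the counts it changes by over 1.5 times.

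Among the 6 libraries, CD8αβ IEL replicates 1 and 2 and CD4 IEL replicate 3 differed most often from all of the other 5. CD8αβ IEL replicate 1 held 70 genes at over 4 times the level in every other library, among them 20 of the 105 ribosomal protein genes tested. Ppia was at 9.38, 10.8 and 15.7 CPM in CD4 IEL and 1774, 29.8 and 25.7 CPM in CD8αβ IEL. CD8αβ IEL replicate 2 held 84 such genes and none of the ribosomal protein genes. The reverse, a level over 4 times lower than in every other library, was found for 126 genes in CD4 IEL replicate 3, 70 in CD8αβ IEL replicate 1 and 7 to 36 in the other 4. The summed level of 27 epithelial markers was 114 to 286 CPM in CD4 IEL and 364, 1220.0 and 460.4 CPM in CD8αβ IEL. The summed level of H2-Aa, H2-Ab1, H2-Eb1 and Cd74, genes of MHC class II presentation, was 133 to 220.0 CPM in CD4 IEL and 386, 1071 and 423 CPM in CD8αβ IEL.

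The difference between the groups covered much of the transcriptome. Of 12622 genes tested with edgeR's quasi-likelihood test, 3655 were called at a Benjamini-Hochberg adjusted p under 0.05, which is 29.0% of them. Of these, 1630 were higher in CD4 IEL (12.9% of tested genes) and 2025 were higher in CD8αβ IEL (16.0%), and these shares are the background for the counts below. For 5240 genes (41.5%) all 3 libraries of one group lay above all 3 of the other. A log2 difference below is CD4 IEL minus CD8αβ IEL, so positive values are higher in CD4 IEL, and its error is the standard error (SE) of the fit. Scaling by library totals alone called 2309 genes higher in CD4 IEL and 1724 higher in CD8αβ IEL, which moved the share of calls higher in CD4 IEL from 44.6% to 57.3% and the median over all genes by 0.12 on the log2 scale. Without CD8αβ IEL replicate 1, 3764 genes were called, and 3173 genes were called in the same direction in both fits. In a fit of the 6 libraries alone, 1061 genes were higher in CD4 IEL and 1591 in CD8αβ IEL.

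**Figure D1:**
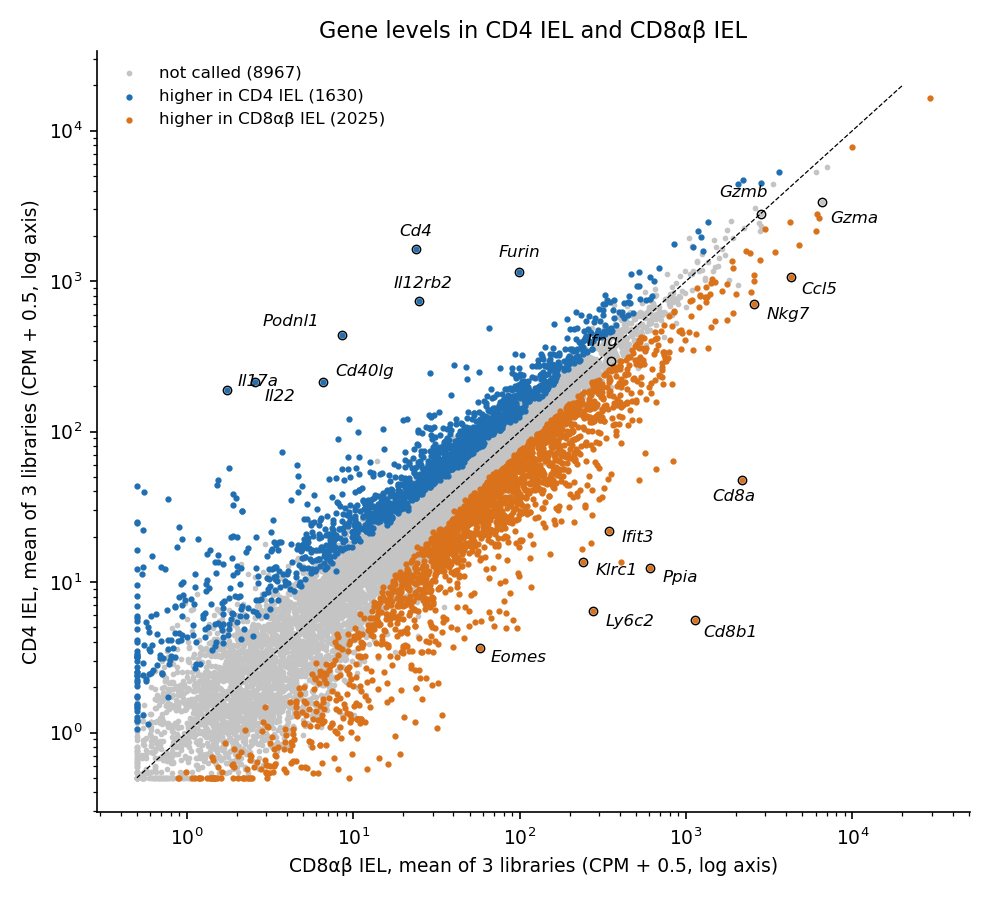
Each point is 1 of the 12622 tested genes, placed by its mean level in the 3 CD8αβ IEL libraries (horizontal axis) and the 3 CD4 IEL libraries (vertical axis), both in CPM + 0.5 on a log axis. Blue points (1630) were called higher in CD4 IEL and orange points (2025) higher in CD8αβ IEL, the dashed line marks equal levels, and named genes are ringed.

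Calls followed transcript length. The length of the longest annotated transcript was known for 12481 tested genes (98.9%). In the 10% of genes with the shortest transcripts (up to 1222 bases), 21 genes were higher in CD4 IEL and 532 in CD8αβ IEL, and the median log2 difference was -0.99. In the 10% with the longest transcripts (6497 bases and more), 316 genes were higher in CD4 IEL and 46 in CD8αβ IEL, and the median was 0.43. CD8αβ IEL replicate 2 showed the steepest trend, with a median deviation from the mean of the 6 libraries of 0.58 in the shortest 10% and -0.35 in the longest 10%. A second fit, chosen after seeing the data, removed the trend in each library with a length offset and called 2741 genes, 1167 higher in CD4 IEL and 1574 higher in CD8αβ IEL. Of the 3655 calls, 2241 (61.3%) were called in the same direction with the offset, and none in the opposite one. The part of length in the differences was not tested further, and values with the offset stand beside the groups it moves.

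**Figure D2:**
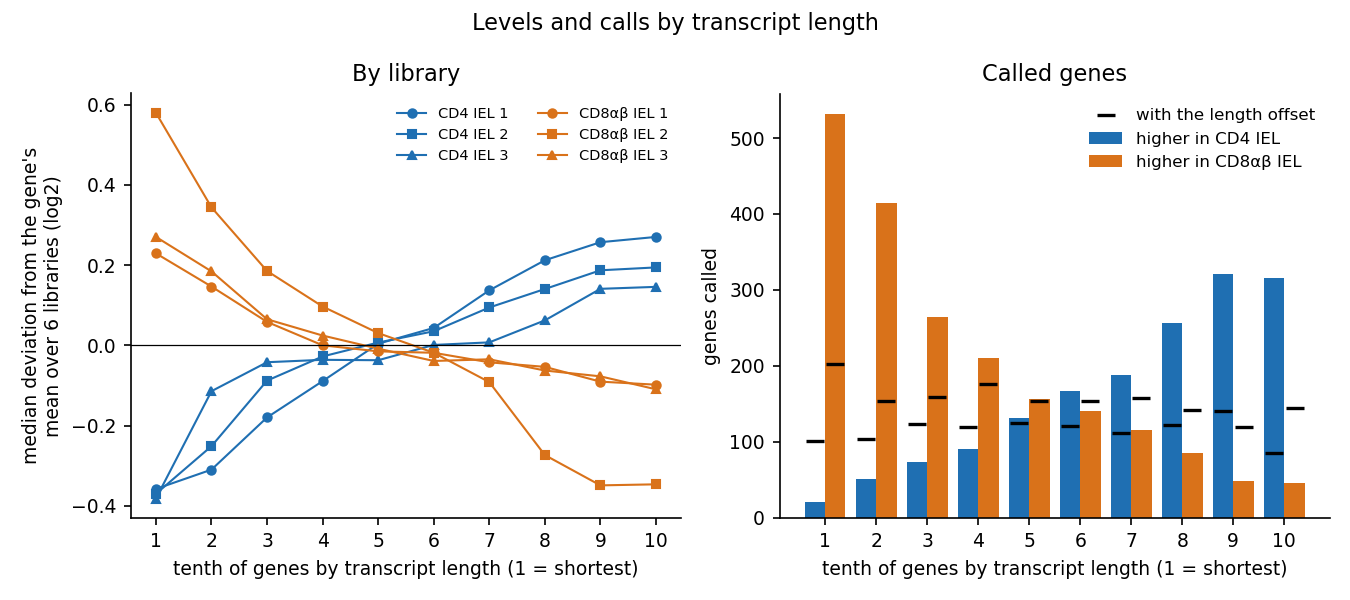
Left, median deviation of log2(CPM + 1) from each gene's mean over the 6 libraries, in 10 groups of genes by transcript length, with 1 line per library. Right, genes called higher in CD4 IEL (blue) or CD8αβ IEL (orange) in each length group, with black dashes for the fit with the length offset: calls in the shortest group run from 532 against 21 without the offset to 203 against 101 with it.

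Th17 and Th22 genes had the highest median log2 difference of the 23 programme lists. Of 17 listed and tested, 11 were higher in CD4 IEL and 0 in CD8αβ IEL, and their median log2 difference was 3.78, beside 0.01 over all tested genes. At an unadjusted p under 0.05 the counts were 13 and 0, with DESeq2 9 and 0, and with limma voom 13 and 0. With the length offset they were 12 and 0, and without CD8αβ IEL replicate 1 also 12 and 0. In bulk libraries, fewer cells of a type and less RNA per cell cannot be told apart, and this holds for every level below.

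Among the cytokines of this group, Il17a (ENSMUSG00000025929, chromosome 1, 20730905 to 20734496), which encodes the cytokine IL-17A, was at 117, 259 and 189 CPM in CD4 IEL and 0.416, 0 and 3.29 CPM in CD8αβ IEL. The lowest CD4 IEL library was thus far above the highest CD8αβ IEL library, and the log2 difference was 7.44 ± 0.71 (SE), adjusted p = 5.89e-05. Il22 (ENSMUSG00000074695, chromosome 10, 118204942 to 118210047), whose product acts on epithelial cells, was at 112, 277 and 251 CPM in CD4 IEL and 2.36, 0 and 3.79 CPM in CD8αβ IEL, with a log2 difference of 6.82 ± 0.66 (SE), adjusted p = 3.6e-05. The length offset gave differences of 8.10 for Il17a and 7.49 for Il22. Il21, a cytokine for B cells and killer cells, was at 44.5, 70.9 and 26.5 CPM in CD4 IEL and 0, 0 and 3.13 CPM in CD8αβ IEL (log2 difference 5.66, adjusted p = 0.00441 by edgeR), and DESeq2 did not call it. Il17f and Ccl20, the latter a chemokine that draws CCR6-bearing cells, had no count in the 3 CD8αβ IEL libraries. Against 3 counts over the group, Il17f was at least 120.3-fold higher in CD4 IEL and Ccl20 at least 63.5-fold higher.

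The promoter window of Il17a is printed because this gene had 1 of the largest differences. The window comes from RefSeq (GRCm38.p6, forward strand, chr1:20730655-20730954) and runs 5′ to 3′ from 250 bases before to 50 bases after the gene's start. Capitals mark a match on the reverse strand to AGGTCA, a half-site that many nuclear receptors bind.
Il17a: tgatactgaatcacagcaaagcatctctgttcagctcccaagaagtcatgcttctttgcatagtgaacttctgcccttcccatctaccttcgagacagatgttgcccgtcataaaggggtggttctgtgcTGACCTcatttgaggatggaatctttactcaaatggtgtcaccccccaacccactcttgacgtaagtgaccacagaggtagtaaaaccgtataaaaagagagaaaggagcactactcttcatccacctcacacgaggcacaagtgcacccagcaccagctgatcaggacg
On either strand these letters stood in the windows of 5 of the 8 Th17 and Th22 genes higher in CD4 IEL that had a window, in 5 of the 14 tested genes of the list with a window (35.7%), and in 15.1% of the 8743 tested genes with one. A match is a description of letters, not of binding.

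Receptors and regulators of the same programme moved with the cytokines. Il17re (ENSMUSG00000043088, chromosome 6, 113458484 to 113470751), a receptor subunit for IL-17 family cytokines, was at 29.1, 37.6 and 63.1 CPM in CD4 IEL and 0, 0 and 0 CPM in CD8αβ IEL, which is at least 315-fold higher against 3 counts over the group. Il23r, the receptor chain for IL-23, was at 14.2, 19.2 and 10.2 CPM in CD4 IEL and 0.139, 0.211 and 0 CPM in CD8αβ IEL, from 345 reads in the 3 CD4 IEL libraries against 3 in the others, a ratio of 111 with a 95% counting interval of 37.8 to 542. For both genes the CD4 IEL libraries lay clear of the CD8αβ IEL libraries, which the rule that named Il17re required. Il1r1, Maf and Ccr6 were chosen after their values were seen. Maf, a transcription factor of IL-10 and IL-21 producing T cells, was at 104, 126 and 134 CPM in CD4 IEL and 4.30, 8.24 and 14.2 CPM in CD8αβ IEL (log2 difference 3.78, adjusted p = 2.38e-05). Ahr, the aryl hydrocarbon receptor, was at 291, 303 and 214 CPM in CD4 IEL and 56.7, 29.4 and 55.3 CPM in CD8αβ IEL (log2 difference 2.52, adjusted p = 5.69e-05), and Ahrr and Tiparp, 2 of its known targets, were also higher by 2.07 and 0.81. The chemokine receptor gene Ccr6 was higher by 3.25, and Il1r1, an IL-1 receptor chain, was higher by 4.68. Rora, a nuclear receptor gene, was at 464, 398 and 455 CPM in CD4 IEL and 372, 171 and 288 CPM in CD8αβ IEL and was not called (adjusted p = 0.203).

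**Figure D3:**
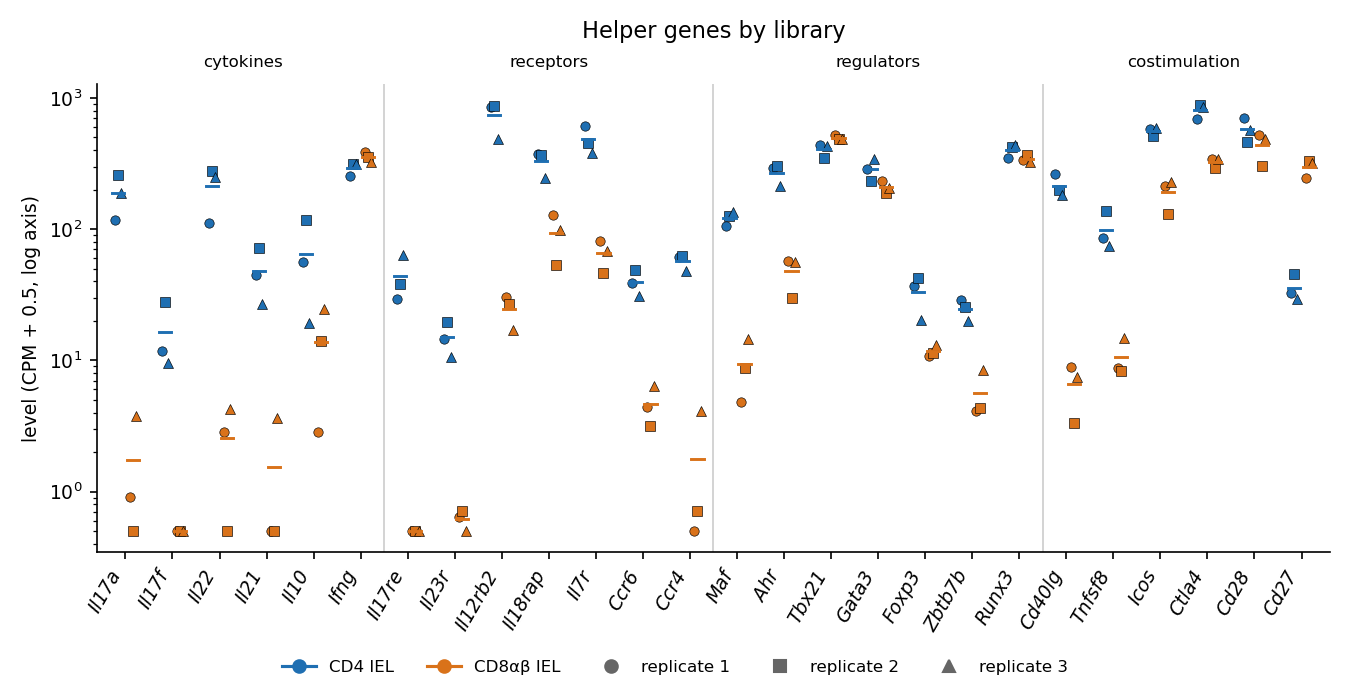
Levels of helper genes in the 3 CD4 IEL libraries (blue) and the 3 CD8αβ IEL libraries (orange), in CPM + 0.5 on a log axis, with marker shapes for replicates and a short line for the group mean. Il17a, Il22, Il17re, Maf, Il12rb2, Il7r and Cd40lg show no overlap between groups, while Runx3 and Cd28 overlap and Ifng and Tbx21 lie close together without passing the test.

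The main Th1 genes did not pass the test. Ifng, which encodes interferon-γ, was at 253, 315 and 315 CPM in CD4 IEL and 386, 353 and 325 CPM in CD8αβ IEL (log2 difference -0.27 ± 0.27 (SE), adjusted p = 0.476). Tbx21, which encodes the factor T-bet, was at 441, 347 and 428 CPM in CD4 IEL and 521, 487 and 489.8 CPM in CD8αβ IEL (log2 difference -0.30 ± 0.13 (SE), adjusted p = 0.0901). The Ifng difference with the length offset was 0.37, adjusted p = 0.276. In both genes the CD8αβ IEL libraries lay slightly above the CD4 IEL libraries without overlap, a pattern that 41.5% of tested genes showed in one direction or the other. Of 15 Th1 genes tested, edgeR called 5 higher in CD4 IEL and 0 in CD8αβ IEL. The latter count was 1 at an unadjusted p under 0.05, 0 with DESeq2 and 0 with limma voom. The called members were receptors and a regulator. Il12rb2 (ENSMUSG00000018341, chromosome 6, 67291318 to 67376188), the signalling chain of the IL-12 receptor, was at 859, 872 and 488 CPM in CD4 IEL and 29.8, 26.2 and 16.6 CPM in CD8αβ IEL, so that the group means differed 30.5-fold (log2 difference 4.93 ± 0.26 (SE), adjusted p = 1.87e-07). Its partner chain Il12rb1 was higher by 1.16, and the IL-18 receptor chains Il18r1 and Il18rap by 1.62 and 1.82. Bhlhe40, a regulator of cytokine expression, was higher by 1.13 (Bhlhe40 and Il12rb1 were chosen after their values were seen).

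Genes of other helper types were mixed. Of 9 Th2 genes tested, 4 were higher in CD4 IEL (2 without CD4 IEL replicate 3), among them the chemokine receptor gene Ccr4, at 61.4, 62.4 and 47.5 CPM in CD4 IEL and 0, 0.211 and 3.62 CPM in CD8αβ IEL (log2 difference 5.61, adjusted p = 0.000739). Gata3, the Th2 regulator, was at 289, 230.5 and 343 CPM in CD4 IEL and 234, 188 and 206 CPM in CD8αβ IEL, a log2 difference of 0.46, adjusted p = 0.0461 that was no longer called with the length offset (adjusted p = 0.079) or without any 1 of CD4 IEL replicates 1 and 3 and CD8αβ IEL replicates 2 and 3. Of 13 regulatory T cell genes tested, 6 were higher in CD4 IEL and 3 in CD8αβ IEL. Foxp3 (ENSMUSG00000039521, chromosome X, 7579676 to 7595243) was at 36.2, 41.6 and 19.8 CPM in CD4 IEL and 10.3, 10.9 and 12.7 CPM in CD8αβ IEL (log2 difference 1.53 ± 0.29 (SE), adjusted p = 0.00206), and Il2ra, the high-affinity IL-2 receptor chain, was higher by 2.16 (chosen after its values were seen). Lgals1, which encodes galectin-1, went the other way, at 91.8, 79.0 and 81.3 CPM in CD4 IEL and 293, 621 and 301 CPM in CD8αβ IEL (log2 difference -2.27, adjusted p = 0.000984, and -1.34 with the length offset). Il10, an inhibitory cytokine, was at 56.0, 116 and 18.7 CPM in CD4 IEL and 2.36, 13.5 and 24.2 CPM in CD8αβ IEL. Its libraries overlapped and the test missed the threshold (adjusted p = 0.0519), while the length offset brought it under (adjusted p = 0.0225). Of 10 follicular helper genes tested, 3 were higher in CD4 IEL and 2 in CD8αβ IEL, and the latter count was 1 when any 1 of the 3 CD4 IEL libraries was left out. Their regulator Bcl6 was at 10.03, 17.1 and 10.6 CPM in CD4 IEL and 7.62, 11.1 and 8.73 CPM in CD8αβ IEL and was not called (adjusted p = 0.33). Tox2, a factor of follicular helper cells, was higher in CD4 IEL, at 65.9, 109 and 144 CPM in CD4 IEL and 17.3, 30.7 and 32.6 CPM in CD8αβ IEL (log2 difference 1.98, adjusted p = 0.000655).

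Among ligands and receptors of T cell help, 7 of 16 tested were higher in CD4 IEL and 4 in CD8αβ IEL. Cd40lg (ENSMUSG00000031132, chromosome X, 57212143 to 57224042), which encodes CD40L, was at 261, 198 and 182 CPM in CD4 IEL and 8.46, 2.85 and 6.92 CPM in CD8αβ IEL (log2 difference 5.16 ± 0.35 (SE), adjusted p = 1.69e-06, and 5.78 with the length offset). Tnfsf8, which encodes the CD30 ligand, was at 85.4, 137 and 74.0 CPM in CD4 IEL and 8.18, 7.82 and 14.3 CPM in CD8αβ IEL (log2 difference 3.31, adjusted p = 0.000106). The costimulatory receptor gene Icos was at 575, 514 and 585 CPM in CD4 IEL and 213, 131 and 229.8 CPM in CD8αβ IEL (log2 difference 1.55, adjusted p = 0.000267), and Tnfrsf4, which encodes OX40, was higher by 2.38 (3.09 with the length offset). All of these had every CD4 IEL library above every CD8αβ IEL library. Receptors of the same family went the other way: Cd27 was at 32.2, 44.8 and 28.6 CPM in CD4 IEL and 244, 329 and 319 CPM in CD8αβ IEL (log2 difference -3.08, adjusted p = 1.69e-06), and Tnfrsf9, which encodes 4-1BB and was chosen after its values were seen, was at 23.9, 50.1 and 40.0 CPM in CD4 IEL and 105, 333 and 159.9 CPM in CD8αβ IEL (log2 difference -2.40, adjusted p = 0.000543). Cd28 did not pass the test (708, 464 and 572 CPM against 526, 301 and 488 CPM). Ltb, which encodes the TNF family ligand lymphotoxin-β and was chosen after its values were seen, was at 198, 149 and 251 CPM in CD4 IEL and 445, 280.0 and 423 CPM in CD8αβ IEL, higher in CD8αβ IEL (log2 difference -0.94, adjusted p = 0.00426), and was not called with the length offset (adjusted p = 0.153).

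Cytokine receptors were higher in CD4 IEL for 15 of 30 tested and higher in CD8αβ IEL for 4, and the length offset left 13 and 3. Il7r (ENSMUSG00000003882, chromosome 15, 9506161 to 9529876), the receptor chain for the survival cytokine IL-7, was at 613, 457 and 383 CPM in CD4 IEL and 80.7, 45.7 and 68.2 CPM in CD8αβ IEL (log2 difference 2.90 ± 0.29 (SE), adjusted p = 5.37e-05). Il2rb, a receptor chain for IL-2 and IL-15, was at 679, 749 and 755 CPM in CD4 IEL and 733, 889 and 762 CPM in CD8αβ IEL and was not called (adjusted p = 0.393). Il1rl1, the IL-33 receptor, was at 17.0, 17.0 and 2.097 CPM in CD4 IEL and 0.277, 0 and 0.329 CPM in CD8αβ IEL, where CD4 IEL replicate 3 was far below the others of its group (log2 difference 5.91, adjusted p = 0.0071). Il27ra was higher in CD4 IEL by 1.37, and Il10ra was higher in CD8αβ IEL, with a log2 difference of -1.35 (both chosen after their values were seen). Among secreted cytokines outside the Th17 group, Tgfb3 was higher in CD4 IEL by 2.32. Over the whole list of secreted cytokines, 6 of 21 tested were higher in CD4 IEL and 2 in CD8αβ IEL, and with the length offset 8 and 1. Mif, a macrophage-acting cytokine, was at 37.5, 35.1 and 38.6 CPM in CD4 IEL and 134, 199.6 and 115 CPM in CD8αβ IEL, higher in CD8αβ IEL (log2 difference -2.01, adjusted p = 0.000171, and -0.98 with the length offset). Tgfb3 and Mif were chosen after their values were seen.

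Genes that fix the CD4 or CD8 fate differed in part. Zbtb7b (ENSMUSG00000028042, chromosome 3, 89377644 to 89394776), which encodes the CD4 lineage factor ThPOK, was at 28.2, 24.9 and 19.6 CPM in CD4 IEL and 3.60, 3.80 and 7.90 CPM in CD8αβ IEL (log2 difference 2.27 ± 0.31 (SE), adjusted p = 0.000249). Runx3 (ENSMUSG00000070691, chromosome 4, 135120652 to 135177990), the CD8 lineage factor, was at 351, 425 and 435 CPM in CD4 IEL and 337, 370.3 and 325 CPM in CD8αβ IEL, with a difference of 0.23 ± 0.14 (SE), adjusted p = 0.248 that did not pass the test. Runx1 was higher in CD4 IEL, at 205, 197 and 265 CPM in CD4 IEL and 43.1, 31.2 and 69.0 CPM in CD8αβ IEL (log2 difference 2.22, adjusted p = 0.000109), and Tox was higher in CD8αβ IEL (log2 difference -1.09, adjusted p = 0.000978). Hic1, a factor of gut T cells, was higher in CD4 IEL by 1.66 (Runx1, Tox and Hic1 were chosen after their values were seen). Themis, which encodes a regulator of T cell receptor signalling, was at 410.2, 331 and 321 CPM in CD4 IEL and 243, 176 and 242 CPM in CD8αβ IEL (log2 difference 0.69, adjusted p = 0.013). This call was lost with the length offset (adjusted p = 0.0756), without CD4 IEL replicate 1 and without CD8αβ IEL replicate 2. Of 16 coreceptor and fate genes, 9 were higher in CD4 IEL and 3 in CD8αβ IEL, counting the sorted coreceptors. The length offset left 5 and 3, and 5 were higher in CD4 IEL without CD8αβ IEL replicate 2.

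Granzyme A and B transcripts were present in all 6 libraries. Gzmb (ENSMUSG00000015437, chromosome 14, 56258856 to 56262260), which encodes granzyme B, was at 1762, 4332 and 2316 CPM in CD4 IEL and 1748, 3709.7 and 2958 CPM in CD8αβ IEL, with a log2 difference of 0.00 ± 0.31 (SE), adjusted p = 1. In both groups replicate 2 was the highest, and with the length offset the difference was 0.55, adjusted p = 0.194. Gzma (ENSMUSG00000023132, chromosome 13, 113093825 to 113100979), which encodes granzyme A, was at 1842, 5180.1 and 3065 CPM in CD4 IEL and 3839, 10876 and 5063 CPM in CD8αβ IEL, and the groups overlapped. The difference of -0.97 ± 0.36 (SE), adjusted p = 0.0607 missed the threshold with all libraries, passed it without CD8αβ IEL replicate 1 (-1.24, adjusted p = 0.0195) and was -0.17 with the length offset. Fasl, a death ligand, was at 531, 459 and 412 CPM in CD4 IEL and 394, 328 and 354 CPM in CD8αβ IEL, higher in CD4 IEL by 0.38, adjusted p = 0.0411. This call was lost in the fit of the 6 libraries alone and without CD4 IEL replicates 1 or 2 or CD8αβ IEL replicates 2 or 3. It was kept with the length offset (0.66, adjusted p = 0.00907) and without CD8αβ IEL replicate 1 (0.46, adjusted p = 0.0303). Tnfsf10, which encodes the death ligand TRAIL, was higher in CD4 IEL by 0.98, adjusted p = 0.00653 (chosen after its values were seen).

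Other genes of killing were higher in CD8αβ IEL. Of 22 granule and death ligand genes tested, 12 were higher there and 3 in CD4 IEL, and the fit of the 6 libraries alone gave 10 and 1. The count of 3 also became 1 without CD8αβ IEL replicate 2, without CD4 IEL replicate 1 and without CD4 IEL replicate 2. With the length offset 7 were higher in CD8αβ IEL. Gzmk (ENSMUSG00000042385, chromosome 13, 113171608 to 113225908), a granzyme of memory-type killer cells, was at 144, 112 and 99.0 CPM in CD4 IEL and 414, 557 and 449 CPM in CD8αβ IEL (log2 difference -1.999 ± 0.22 (SE), adjusted p = 5.88e-05, and -1.37 with the length offset). Nkg7 (ENSMUSG00000004612, chromosome 7, 43437073 to 43438246), a granule membrane protein needed for degranulation, was at 647, 709 and 741 CPM in CD4 IEL and 2483, 2872 and 2356 CPM in CD8αβ IEL (log2 difference -1.88 ± 0.14 (SE), adjusted p = 4.22e-06). Its longest transcript has only 881 bases, and with the offset the difference was -1.06, adjusted p = 2.46e-05. Crtam, a receptor of cytotoxic T cells, was at 15.8, 30.8 and 11.1 CPM in CD4 IEL and 102, 54.6 and 79.2 CPM in CD8αβ IEL (log2 difference -2.03, adjusted p = 0.00194). For all 3 the libraries of the groups lay apart. Prf1, which encodes the pore protein perforin, was at 113, 170.0 and 90.2 CPM in CD4 IEL and 193, 163 and 216 CPM in CD8αβ IEL, and its groups overlapped (log2 difference -0.62, adjusted p = 0.0444). Prf1 was no longer called without CD8αβ IEL replicate 1 (-0.60, adjusted p = 0.0773), without CD4 IEL replicates 1 or 3 or CD8αβ IEL replicate 3, with the length offset (adjusted p = 0.101) or in the fit of the 6 libraries alone. The granule genes Ctsw, Cst7 and Srgn, chosen after their values were seen, differed by -0.78, -0.82 and -0.60, and none of them was called with the length offset, where the values were -0.33, -0.08 and -0.22.

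**Figure D4:**
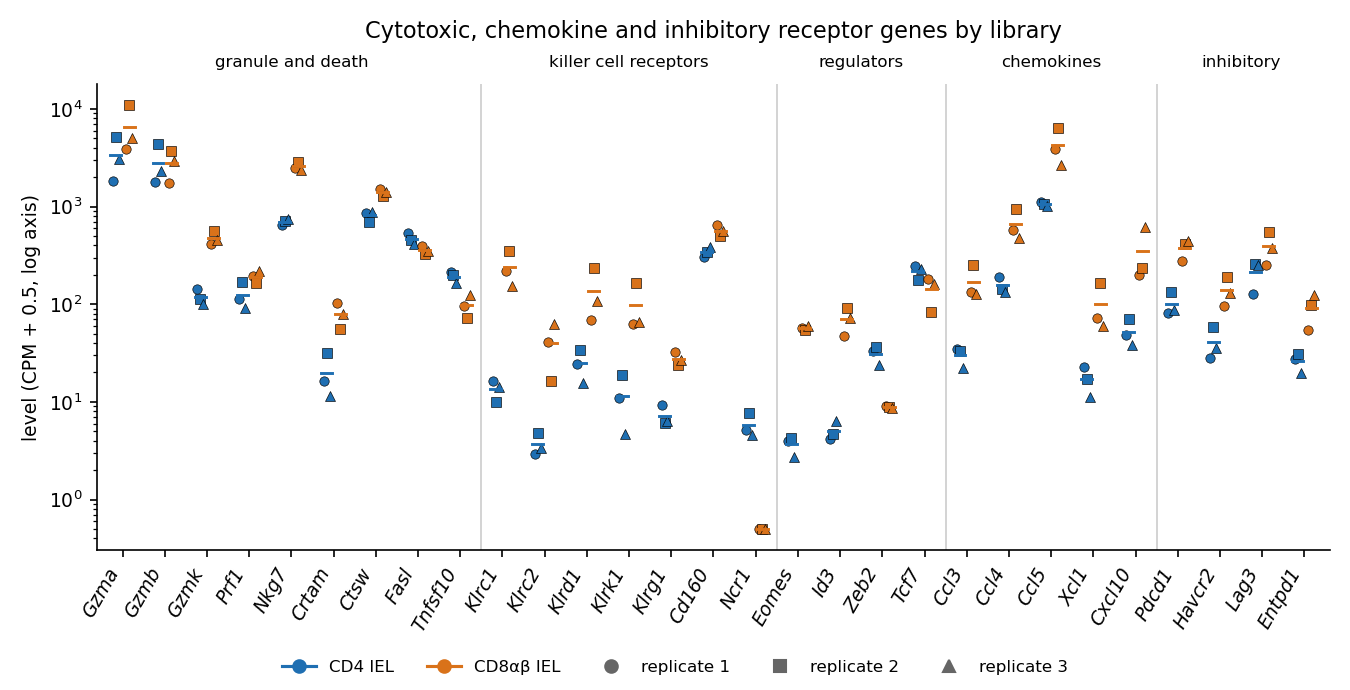
Levels of cytotoxic, NK-type receptor, regulator, chemokine and inhibitory receptor genes in the 3 CD4 IEL libraries (blue) and 3 CD8αβ IEL libraries (orange), in CPM + 0.5 on a log axis, with marker shapes for replicates and a short line for the group mean. Gzma and Gzmb overlap between groups, while Gzmk, Nkg7, Klrc1, Klrd1, Eomes and Ccl3 to Ccl5 lie apart.

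NK-type receptors of the NKG2 family were higher in CD8αβ IEL. Klrc1 (ENSMUSG00000030167, chromosome 6, 129666015 to 129678973), which encodes the inhibitory receptor NKG2A, was at 15.8, 9.53 and 13.6 CPM in CD4 IEL and 219, 347 and 153 CPM in CD8αβ IEL, 18.5-fold apart in group means (log2 difference -4.20 ± 0.34 (SE), adjusted p = 9.05e-06). Klrd1, which encodes its partner CD94, was at 24.1, 33.8 and 15.1 CPM in CD4 IEL and 68.9, 234 and 108 CPM in CD8αβ IEL (log2 difference -2.49, adjusted p = 0.00081, and -1.62 with the length offset). Klrk1, which encodes the stress receptor NKG2D, was at 10.5, 18.3 and 4.19 CPM in CD4 IEL and 62.9, 164 and 66.0 CPM in CD8αβ IEL (log2 difference -3.15, adjusted p = 0.000708). In Klrd1 and Klrk1 CD8αβ IEL replicate 2 was the highest library, and all 3 of the group were above every CD4 IEL library. Klrc2, a related activating receptor gene, had a log2 difference of -3.63, adjusted p = 0.000361. Cd160, a receptor known on IEL, was at 306, 343 and 386 CPM in CD4 IEL and 645, 494 and 563 CPM in CD8αβ IEL (log2 difference -0.72, adjusted p = 0.00597). Of 24 such genes tested, 8 were higher in CD8αβ IEL and 3 in CD4 IEL, and with the length offset 6 and 3, while the median of the list went from -0.20 to 0.13. Those 3 included Ncr1, at 4.69, 7.18 and 4.04 CPM in CD4 IEL and 0, 0 and 0 CPM in CD8αβ IEL, and Klrb1f, at 47.4, 50.5 and 44.9 CPM in CD4 IEL and 7.49, 6.55 and 5.76 CPM in CD8αβ IEL (log2 difference 2.85, adjusted p = 1.58e-05), which was chosen after its values were seen. The adaptor gene Tyrobp was at 29.3, 59.6 and 24.0 CPM in CD4 IEL and 33.7, 165 and 30.1 CPM in CD8αβ IEL and was not called (adjusted p = 0.172, log2 difference -1.03, and 0.13 with the length offset; chosen after its values were seen). Reads of the Klr genes are uncertain where family members are near identical.

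Among effector and memory regulators, 5 of 19 tested were higher in CD8αβ IEL and 3 in CD4 IEL. The former count was 3 without CD4 IEL replicate 1 and 3 without CD8αβ IEL replicate 2. Eomes (ENSMUSG00000032446, chromosome 9, 118478212 to 118486132), a T-box factor of killer cells, was at 3.49, 3.78 and 2.25 CPM in CD4 IEL and 56.8, 54.5 and 59.9 CPM in CD8αβ IEL (log2 difference -4.15 ± 0.57 (SE), adjusted p = 0.000252). Id3, an inhibitor of E proteins, was at 3.71, 4.18 and 5.84 CPM in CD4 IEL and 47.3, 90.1 and 72.6 CPM in CD8αβ IEL (log2 difference -3.94, adjusted p = 0.000321, and -3.31 with the length offset). For both genes the groups lay far apart without overlap. Zeb2 was higher in CD4 IEL, at 32.8, 36.1 and 23.4 CPM in CD4 IEL and 8.60, 8.35 and 8.23 CPM in CD8αβ IEL (log2 difference 1.87, adjusted p = 0.011), and so was Prdm1, which encodes Blimp-1, by 1.12, adjusted p = 0.00311 (chosen after its values were seen). Tcf7, a factor of naive and memory cells, was at 246, 178 and 226 CPM in CD4 IEL and 183, 83.3 and 162 CPM in CD8αβ IEL and was not called (adjusted p = 0.28).

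Chemokine genes were higher in CD8αβ IEL for 6 of 10 tested. Ccl5 (ENSMUSG00000035042, chromosome 11, 83525778 to 83530518), a chemokine of killer cells, was at 1124, 1065 and 1013 CPM in CD4 IEL and 3857, 6332 and 2679 CPM in CD8αβ IEL (log2 difference -2.01 ± 0.29 (SE), adjusted p = 0.000342). Ccl3 was at 34.5, 32.5 and 21.7 CPM in CD4 IEL and 132, 249 and 127 CPM in CD8αβ IEL and Ccl4 at 192, 142 and 134 CPM in CD4 IEL and 574, 932 and 476 CPM in CD8αβ IEL, with log2 differences of -2.52 (adjusted p = 5.69e-05) and -2.08 (adjusted p = 5.89e-05). Xcl1, which draws cross-presenting dendritic cells, was at 22.2, 16.8 and 10.8 CPM in CD4 IEL and 71.4, 166 and 58.9 CPM in CD8αβ IEL (log2 difference -2.57, adjusted p = 0.000803). In these 4 genes no CD4 IEL library reached a CD8αβ IEL library. Their transcripts have 523 to 766 bases. With the length offset all 4 were still called, at -0.998, -1.57, -1.08 and -1.43. Cxcl10, which is induced by interferons, was at 48.2, 69.8 and 37.7 CPM in CD4 IEL and 201, 236 and 621 CPM in CD8αβ IEL, highest in replicate 3 (log2 difference -2.76, adjusted p = 0.00175).

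Inhibitory receptors were higher in CD8αβ IEL for 8 of 16 tested and higher in CD4 IEL for 1, which was Ctla4. Pdcd1 (ENSMUSG00000026285, chromosome 1, 94038307 to 94052553), which encodes PD-1, was at 81.3, 134 and 86.7 CPM in CD4 IEL and 274, 409 and 447 CPM in CD8αβ IEL (log2 difference -1.90 ± 0.32 (SE), adjusted p = 0.00093). Havcr2, which encodes TIM-3, was at 27.9, 58.6 and 35.5 CPM in CD4 IEL and 94.3, 190.4 and 129 CPM in CD8αβ IEL (log2 difference -1.76, adjusted p = 0.00147), and Entpd1, which encodes the ectoenzyme CD39, was at 27.0, 30.1 and 19.3 CPM in CD4 IEL and 53.4, 98.4 and 123 CPM in CD8αβ IEL (log2 difference -1.84, adjusted p = 0.000263). All 3 genes were higher in each CD8αβ IEL library than in any CD4 IEL library. Lag3 overlapped between groups, at 126, 256 and 251 CPM in CD4 IEL and 253, 551 and 375 CPM in CD8αβ IEL (log2 difference -0.90, adjusted p = 0.0275), and was lost with the length offset and without CD4 IEL replicate 1 or CD8αβ IEL replicate 2. Ctla4 went the other way, at 695, 878 and 848 CPM in CD4 IEL and 345, 290.2 and 340.2 CPM in CD8αβ IEL (log2 difference 1.31, adjusted p = 0.00248). Lag3 and Ctla4 were chosen after their values were seen. Some settings called other members higher in CD4 IEL too, up to 3 in the fit of the 6 libraries alone.

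Of 24 residency, homing and egress genes tested, 6 were higher in CD4 IEL, 4 were higher in CD8αβ IEL and 14 were not called. Itgae, which encodes the CD103 integrin that binds epithelial E-cadherin, was at 2189, 2330.4 and 2089.7 CPM in CD4 IEL and 2109, 1486 and 1655 CPM in CD8αβ IEL (log2 difference 0.33, adjusted p = 0.0693). It was called without CD8αβ IEL replicate 1 (0.49, adjusted p = 0.00748). Cd69 was at 2104, 1902 and 1794 CPM in CD4 IEL and 1891, 1436 and 1814 CPM in CD8αβ IEL and Cxcr6 at 1186, 1145 and 1225 CPM in CD4 IEL and 1462, 1105 and 1151 CPM in CD8αβ IEL (both chosen after their values were seen), and neither was called. Itga1 was not called either (0.45, adjusted p = 0.163, and -0.05 with the length offset). The gut homing receptor gene Ccr9 was at 595, 686 and 672 CPM in CD4 IEL and 245, 369 and 289 CPM in CD8αβ IEL (log2 difference 1.11, adjusted p = 0.000757). Its longest transcript has 5197 bases, and with the length offset the difference was 0.76, adjusted p = 0.0281. Itgb1, an integrin chain, was higher in CD8αβ IEL, at 68.1, 48.9 and 32.9 CPM in CD4 IEL and 245, 144 and 131 CPM in CD8αβ IEL (log2 difference -1.79, adjusted p = 0.000541). S1pr1, a receptor for egress, and its regulator Klf2 were not called (adjusted p = 0.175 and 0.538).

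The T cell receptor complex showed unequal chains. Cd3d was at 248, 217 and 234 CPM in CD4 IEL and 727, 749.5 and 611 CPM in CD8αβ IEL (log2 difference -1.58, adjusted p = 0.000377) and Cd3g at 424, 465 and 458 CPM in CD4 IEL and 932, 1002 and 901 CPM in CD8αβ IEL (log2 difference -1.07, adjusted p = 5.69e-05), while Cd3e was at 505, 528 and 639 CPM in CD4 IEL and 574, 403 and 503 CPM in CD8αβ IEL and Lck at 2098, 2168 and 2455 CPM in CD4 IEL and 2478, 1938 and 2279 CPM in CD8αβ IEL, with neither of the latter called (Cd3e and Lck were chosen after their values were seen). Of 36 receptor and proximal signalling genes tested, 24 were not called, 7 were higher in CD8αβ IEL and 5 in CD4 IEL. The length offset left 2 higher in CD4 IEL, and leaving out CD8αβ IEL replicate 2 also left 2. That count was 3 without CD4 IEL replicate 1, 3 without CD4 IEL replicate 3 and 8 with scaling by library totals alone. Trat1, which encodes an adaptor that stabilises the receptor complex, was at 69.6, 73.3 and 86.9 CPM in CD4 IEL and 24.4, 11.2 and 32.8 CPM in CD8αβ IEL (log2 difference 1.76, adjusted p = 0.00248).

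Among TNF receptor family and apoptosis genes, 7 of 20 tested were higher in CD8αβ IEL and 3 in CD4 IEL. The latter count was 1 with the length offset and without CD8αβ IEL replicate 1 or 3, and 0 in the fit of the 6 libraries alone and without CD4 IEL replicate 1 or 2. Bcl2a1d, of the anti-apoptotic A1 family with near-identical copies, was at 80.3, 56.0 and 48.8 CPM in CD4 IEL and 216, 159 and 164 CPM in CD8αβ IEL (log2 difference -1.54, adjusted p = 0.000215).

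Cell cycle genes were higher in CD8αβ IEL for 29 of 42 tested and higher in CD4 IEL for 0. With the length offset the counts were again 29 and 0, and at an unadjusted p under 0.05 they were 33 and 0. DESeq2 gave 30 and 0, and limma voom 32 and 0. Ube2c, a ubiquitin-conjugating enzyme of mitotic exit, was at 23.2, 27.0 and 27.9 CPM in CD4 IEL and 86.9, 145 and 135 CPM in CD8αβ IEL (log2 difference -2.23 ± 0.30 (SE), adjusted p = 0.000245). Tk1, a thymidine kinase of S phase, was at 20.4, 22.6 and 30.6 CPM in CD4 IEL and 67.0, 112 and 77.4 CPM in CD8αβ IEL (log2 difference -1.81, adjusted p = 0.000634), and Birc5, which encodes survivin, was at 23.2, 33.8 and 34.1 CPM in CD4 IEL and 78.9, 127 and 114 CPM in CD8αβ IEL (log2 difference -1.82, adjusted p = 0.000383). In each the CD8αβ IEL libraries were all above the CD4 IEL libraries. Mki67, the proliferation marker, was at 138, 163 and 168 CPM in CD4 IEL and 223, 213 and 222 CPM in CD8αβ IEL, a smaller difference of -0.49, adjusted p = 0.0291 that was lost when any 1 library other than CD4 IEL replicate 3 was left out (without CD8αβ IEL replicate 1, -0.47, adjusted p = 0.057). The Mki67 difference with the length offset was -1.001, adjusted p = 0.00182.

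Interferon-stimulated genes were higher in CD8αβ IEL for 19 of 32 tested and higher in CD4 IEL for 0, with a median log2 difference of -1.37. The counts were 23 and 0 at an unadjusted p under 0.05, 21 and 0 with DESeq2, 20 and 0 with limma voom, 21 and 0 with the length offset, and 23 and 0 without CD8αβ IEL replicate 1. Ifit3 (ENSMUSG00000074896, chromosome 19, 34583531 to 34588731), an antiviral effector, was at 34.9, 17.4 and 11.4 CPM in CD4 IEL and 154, 272 and 605 CPM in CD8αβ IEL (log2 difference -4.00 ± 0.77 (SE), adjusted p = 0.00228). Usp18, a brake on interferon signalling, was at 25.5, 14.5 and 8.39 CPM in CD4 IEL and 60.7, 263 and 387 CPM in CD8αβ IEL (log2 difference -3.86, adjusted p = 0.00276). Isg15, a ubiquitin-like modifier, was at 32.4, 33.7 and 26.5 CPM in CD4 IEL and 122, 227 and 389.9 CPM in CD8αβ IEL (log2 difference -2.99, adjusted p = 0.000963, and -2.10 with the length offset), and Irf7, a regulator of interferon genes, was at 227, 204 and 186 CPM in CD4 IEL and 397, 646 and 1148 CPM in CD8αβ IEL (log2 difference -1.83, adjusted p = 0.00326). In all 4, CD8αβ IEL replicate 3 was the highest library and replicate 1 the lowest of its group, and no CD4 IEL library reached them. Isg15 and Irf7 were chosen after their values were seen. The summed level of the 32 genes was 5789, 5673 and 4360.0 CPM in CD4 IEL and 6552, 8393 and 14000 CPM in CD8αβ IEL.

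Promoter windows of Ifit3 and Isg15 are printed because these genes moved together. Both come from RefSeq (GRCm38.p6), Ifit3 from the forward strand at chr19:34583279-34583578 and Isg15 from the reverse strand at chr4:156200769-156201068. Capitals mark matches on either strand to GAAANNGAA, letters of the interferon-stimulated response element, with overlapping matches joined.
Ifit3: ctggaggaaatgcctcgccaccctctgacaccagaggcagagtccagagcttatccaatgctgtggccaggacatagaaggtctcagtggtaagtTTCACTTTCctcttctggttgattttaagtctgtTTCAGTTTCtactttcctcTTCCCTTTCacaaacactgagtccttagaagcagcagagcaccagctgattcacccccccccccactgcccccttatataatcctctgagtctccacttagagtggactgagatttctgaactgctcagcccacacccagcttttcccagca
Isg15: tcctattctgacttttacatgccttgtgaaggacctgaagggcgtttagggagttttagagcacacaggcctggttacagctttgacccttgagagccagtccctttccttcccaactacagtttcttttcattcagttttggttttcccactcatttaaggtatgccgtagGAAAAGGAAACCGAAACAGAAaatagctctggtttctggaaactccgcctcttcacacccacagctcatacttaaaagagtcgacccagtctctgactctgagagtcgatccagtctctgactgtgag
Each window held 3 matches. The letters stood in the windows of 9 of the 14 interferon-stimulated genes higher in CD8αβ IEL that had a window, in 15 of 22 tested genes of the list with a window, and in 8.81% of the 8743 tested genes with a window.

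Stress genes differed in both directions, with 9 of 30 immediate early and stress genes higher in CD8αβ IEL and 6 in CD4 IEL. Those higher in CD8αβ IEL included heat shock genes, and the single genes described below are all from that side. Hspa1b, an inducible HSP70 gene with a near-identical neighbour, was at 35.2, 57.4 and 123 CPM in CD4 IEL and 1263, 263 and 178 CPM in CD8αβ IEL, where replicate 1 was far above the others (log2 difference -2.99, adjusted p = 0.00595). Without CD8αβ IEL replicate 1 the difference was -1.63, adjusted p = 0.023. Hsp90aa1, which encodes inducible HSP90 and was chosen after its values were seen, was at 525, 651 and 667 CPM in CD4 IEL and 2192, 2081 and 1491 CPM in CD8αβ IEL (log2 difference -1.65, adjusted p = 0.000354, and -1.54 without that library). Atf3, a stress-induced factor, was at 5.78, 10.6 and 12.7 CPM in CD4 IEL and 48.8, 134 and 60.1 CPM in CD8αβ IEL (log2 difference -3.08, adjusted p = 0.000951). The summed level of 7 heat shock genes was 6136 to 10333 CPM in CD4 IEL and 13549 to 23571 CPM in CD8αβ IEL. Hspa8, among these genes and chosen after its values were seen, was highest in CD8αβ IEL replicate 1 (9407 CPM). Its log2 difference was -1.12, adjusted p = 0.0155, and -0.66, adjusted p = 0.0675 without that library. TTCNNGAA, letters of the heat shock element, stood in the windows of 2 of the 25 listed stress genes with a window, and in 8.43% of the tested genes with one.

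Counts of the metabolic lists changed with the length offset and with single libraries. Of 18 glycolysis genes tested, 8 were higher in CD8αβ IEL and 1 in CD4 IEL, with the length offset 5 and 1, and 7 and 2 without CD8αβ IEL replicate 1. Gapdh was at 42.2, 40.8 and 38.3 CPM in CD4 IEL and 219, 74.0 and 78.4 CPM in CD8αβ IEL and Pgk1 at 30.4, 29.5 and 34.6 CPM in CD4 IEL and 184, 45.4 and 34.6 CPM in CD8αβ IEL. Replicate 1 of CD8αβ IEL was the highest in both. Without it the differences went from -1.61 to -0.91 for Gapdh and from -1.48 to -0.35 for Pgk1. Pgk1 was then no longer called (adjusted p = 0.228). The handling of multi-mapped reads was not given, so levels of genes with processed copies, such as Gapdh, are uncertain. Of 21 sterol and fatty acid genes, 7 were higher in CD4 IEL and 1 in CD8αβ IEL. The count of 7 was 2 with the length offset, 4 in the fit of the 6 libraries alone and 4 with limma voom. It was 3 without CD4 IEL replicate 2, and 4 without CD4 IEL replicate 3, CD8αβ IEL replicate 1 or CD8αβ IEL replicate 2. The count of 1 was 0 without CD4 IEL replicate 1 and 2 without CD8αβ IEL replicate 3. Elovl6, a fatty acid elongase, was at 54.6, 136 and 54.8 CPM in CD4 IEL and 15.7, 28.7 and 26.7 CPM in CD8αβ IEL (log2 difference 1.79, adjusted p = 0.00205), and Srebf2, the regulator of sterol synthesis, was at 520.4, 539 and 536 CPM in CD4 IEL and 305, 202 and 334 CPM in CD8αβ IEL (log2 difference 0.92, adjusted p = 0.00142).

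**Figure D5:**
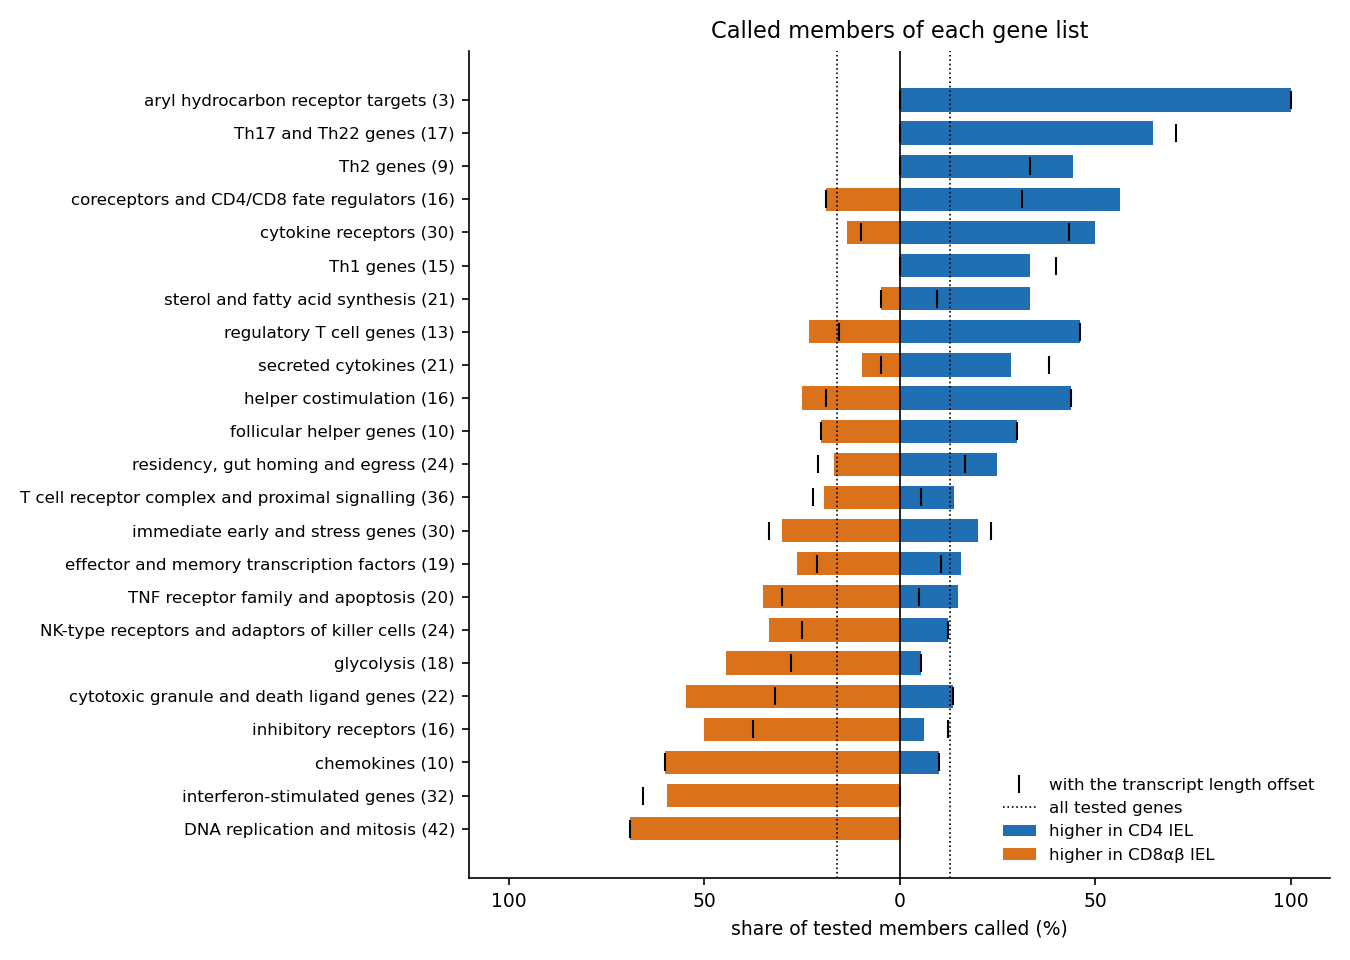
Share of the tested members of each of the 23 programme lists that were called higher in CD4 IEL (blue, to the right) or in CD8αβ IEL (orange, to the left), with the number tested in brackets. Dotted lines mark the same shares over all tested genes without the length offset (12.9% and 16.0%). Black ticks mark the shares with the offset, which called 1167 and 1574 of all 12622 tested genes, so the lines are not their background. Th17 and Th22 genes lie furthest to the right among lists of 10 or more genes, and cell cycle, chemokine and interferon-stimulated genes furthest to the left.

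The largest differences over all tested genes also held genes outside these programmes. Podnl1 (ENSMUSG00000012889, chromosome 8, 84125989 to 84132527), a leucine-rich repeat protein gene, was at 420.5, 412 and 492 CPM in CD4 IEL and 8.32, 7.18 and 8.56 CPM in CD8αβ IEL (log2 difference 5.78 ± 0.39 (SE), adjusted p = 1.69e-06). Plcb4, a phospholipase C, was at 21.2, 45.9 and 50.5 CPM in CD4 IEL and 0, 0 and 0.165 CPM in CD8αβ IEL, from 883 reads against 1, a ratio of 854 with a 95% counting interval of 153 to 33788. Ermn was at 18.2, 38.9 and 48.2 CPM in CD4 IEL and 0, 0.634 and 0.165 CPM in CD8αβ IEL and Ankrd6 at 39.0, 45.4 and 45.8 CPM in CD4 IEL and 0.416, 0.634 and 1.98 CPM in CD8αβ IEL, with log2 differences of 6.81 and 5.48. Furin, a protease that processes TGF-β, was at 935, 1369 and 1145 CPM in CD4 IEL and 99.8, 82.2 and 114 CPM in CD8αβ IEL (log2 difference 3.54, adjusted p = 2.43e-07; chosen after its values were seen). These 5 had no overlap between groups, which the rule that named Podnl1, Plcb4, Ermn and Ankrd6 required. On the CD8αβ side, Ly6c2, which encodes the memory marker Ly6C, was at 10.9, 3.91 and 2.85 CPM in CD4 IEL and 193, 405 and 229 CPM in CD8αβ IEL (log2 difference -5.51 ± 0.49 (SE), adjusted p = 2.15e-05). Ly6d was at 9.60, 2.61 and 1.20 CPM in CD4 IEL and 17.1, 235 and 36.4 CPM in CD8αβ IEL, with most of the signal in replicate 2 (log2 difference -4.38, adjusted p = 0.00408, and -3.29 with the length offset). Car2, which encodes a carbonic anhydrase and was chosen after its values were seen, was at 52.0, 82.9 and 55.0 CPM in CD4 IEL and 634, 1197 and 684 CPM in CD8αβ IEL (log2 difference -3.73, adjusted p = 1.69e-06). The Ly6 genes are a family whose reads are uncertain where copies are alike.

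Some of the largest differences rested on CD8αβ IEL replicate 1. Ppia, which encodes cyclophilin A, had a log2 difference of -5.68 with all libraries and -1.21, adjusted p = 0.00813 without that library. Rps6, a ribosomal protein gene, was at 12.9, 14.5 and 11.7 CPM in CD4 IEL and 1169, 25.4 and 26.0 CPM in CD8αβ IEL, and its difference went from -4.96 to -0.98, adjusted p = 0.0153. Sumo2, which encodes a small modifier protein, was at 5.56, 4.70 and 5.09 CPM in CD4 IEL and 252, 8.56 and 9.55 CPM in CD8αβ IEL, and its difference went from -4.13 to -0.82, adjusted p = 0.126, and was no longer called (with all libraries and the length offset it was -3.52). Of the 105 ribosomal protein genes, 79 were higher in CD8αβ IEL with all libraries and 71 without replicate 1. With the length offset 56 were, and 1 was higher in CD4 IEL in each of the 3 fits. Many of these genes have near-identical processed copies, so their reads are uncertain.

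Markers of other cell types were read beside these results. In the epithelial list 10 of 22 tested were higher in CD8αβ IEL and 0 in CD4 IEL (DESeq2 gave 11 and 0, and 12 and 0 had an unadjusted p under 0.05). The first of these counts was 5 without CD8αβ IEL replicate 2, 5 without CD4 IEL replicate 3, 6 without CD4 IEL replicate 1, 5 with limma voom and 6 with the length offset. Apoa1, an apolipoprotein of enterocytes, was at 12.6, 17.0 and 1.80 CPM in CD4 IEL and 37.6, 181 and 77.5 CPM in CD8αβ IEL (log2 difference -3.22, adjusted p = 0.00705, and -2.40 with the length offset). H2-Aa, of MHC class II, was at 32.9, 18.5 and 12.9 CPM in CD4 IEL and 49.6, 180.0 and 50.1 CPM in CD8αβ IEL (log2 difference -2.12, adjusted p = 0.00866), highest in the same replicate 2. Of 9 antigen presentation and B cell genes tested, 5 were higher in CD8αβ IEL and 0 in CD4 IEL, and with the length offset 3 and 0. H2-Ab1 and Cd74 were called without the offset but not with it (adjusted p = 0.0523 and 0.0505). The myeloid list gave 2 higher in each group. The count in CD4 IEL was 1 in the fit of the 6 libraries alone, 1 without CD4 IEL replicate 3, 1 without CD8αβ IEL replicate 2 and 0 with limma voom. Its summed level was 108 to 204 CPM in CD4 IEL and 192 to 311 CPM in CD8αβ IEL, and S100a8 and S100a9 had 0 counts in all 6 libraries. Of the NK and innate lymphoid list, 7 of 15 tested were higher in CD4 IEL and 2 in CD8αβ IEL, among them Ncr1 and Il1rl1, which other lists hold too. The summed level of that list went the other way, at 1316 to 1818 CPM in CD4 IEL and 2145 to 2812 CPM in CD8αβ IEL, without overlap. Members with high levels weigh most in such a sum. Whether this separation rests on 1 such member, which T cells may express too, was not tested. In the stroma and vessel list, 3 of 6 tested were higher in CD4 IEL and 0 in CD8αβ IEL (DESeq2 gave 2 and 1). The summed level of that list was 451 to 531 CPM in CD4 IEL and 308 to 349 CPM in CD8αβ IEL. Pecam1 was at 107, 113 and 70.1 CPM in CD4 IEL and 27.3, 28.9 and 19.6 CPM in CD8αβ IEL (log2 difference 1.93, adjusted p = 5.69e-05). The sorted CD8αα libraries held more of it, at 499 to 749 CPM. Col3a1, Pdgfra, Dcn and Lyve1 had 0 counts in all 6 libraries. Pdgfrb was at 7.96, 23.2 and 41.8 CPM in CD4 IEL and 0, 0 and 0 CPM in CD8αβ IEL, at least 171-fold higher against 3 counts over the group, and DESeq2 did not call it. The γδ and natural IEL list gave 4 of 14 higher in CD4 IEL, with Il17a among them. The part of such cells in the differences was not tested.

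The CD4-minus-CD8αβ difference was set against the same difference between CD8αα from CD4 and CD8αα from CD8αβ, with the limit on those libraries given above. The test of the difference between both differences called 323 genes (2.56% of 12622), 171 positive and 152 negative. An unadjusted p under 0.05 was reached by 2302 genes, and DESeq2 called 817. Among helper genes, the interaction was 5.06 ± 0.33 (SE), adjusted p = 2.81e-06, for Il12rb2, whose level in the CD8αα libraries was 309 to 399 CPM. For Maf it was 5.28 ± 0.48 (SE), adjusted p = 5.23e-05, with 3.78 to 15.1 CPM in the CD8αα libraries, and for Furin 3.72 ± 0.26 (SE), adjusted p = 3.91e-06. Among cytotoxic genes it was -7.09 ± 0.48 (SE), adjusted p = 3.54e-06, for Klrc1, -3.68 ± 0.31 (SE), adjusted p = 2.62e-05, for Gzmk, and -1.33 ± 0.20 (SE), adjusted p = 0.00246, for Nkg7. The groups called CD8αα held Gzmb at 12110.0 to 20070.0 CPM, Gzma at 33554 to 47198 CPM and Nkg7 at 1791 to 3463 CPM. Il17a was at 0 to 0.468 CPM and Il22 at 0 to 0.115 CPM in the CD8αα libraries, and for neither was the interaction called. Their interactions were 2.77 ± 15.19 (SE) and 6.49 ± 5.09 (SE). With the CD8αα libraries near the floor, errors this wide cannot decide whether the pairs differed. Ifit3 had an interaction of 0.07 ± 1.02 (SE), adjusted p = 0.991, with 3.21 to 153 CPM in the CD8αα libraries, so no difference between the pairs was detected for it, and Eomes one of -3.31 ± 1.76 (SE), adjusted p = 0.345.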

How the data were processed

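RNA-seq counts per gene were deposited as 1 table for all 12 libraries. Reads were aligned with HISAT2 2.1.0 to mm10, per the submitters' processing notes. The counter, its annotation, strand setting and handling of multi-mapped reads were not given in the sources used here, so overlapping genes and near-identical copies cannot be told apart. Of 25965 rows in the table, 66 that repeated a symbol were left out. Library totals were 6099918 to 9443881 counts in the 6 libraries compared.

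edgeR 4.0.16 (R 4.3.3) fitted its quasi-likelihood model to all 12 libraries, with TMM scaling, a filter (minimum count 10, minimum total 15) and Benjamini-Hochberg adjustment over 12622 genes. Adjusted p-values are from this fit unless another is named. Intervals on read ratios are 95% and cover counting error only. Alternatives were DESeq2 1.42.0, limma 3.58.1 voom with quality weights, other scalings and filters, the 6 libraries alone, a replicate block and each library left out. A length offset (loess on the longest GENCODE transcript length, span 0.5) was added after seeing the data. The scripts were tested on simulated data.

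Libraries and gene lists were chosen with earlier results of these data known. Named genes were the coreceptor and fate genes, the 10 largest non-overlapping called differences each way with the higher mean above the median of tested genes (unnamed models, small RNAs and receptor segments left out), up to 3 called members per list, and a set list. Some genes that the rule names are not reported here. Others are marked as chosen after their values were seen. Library replicates differed by more than sampling noise.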

Additional observations from a re-analysis of the deposited data

Results flagged for a closer look

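The values here are interactions on the log2 scale, that is the difference CD4 IEL minus CD8αβ IEL less the difference CD8αα from CD4 minus CD8αα from CD8αβ. They stand out because the size or direction of the difference depended on which pair of groups was read. This was judged by edgeR's interaction test at an adjusted p under 0.05, which 323 genes passed. Of these, 287 were also called between CD4 IEL and CD8αβ IEL. For Furin the interaction was 3.72 beside a CD4 IEL minus CD8αβ IEL difference of 3.54, and for Il12rb2 5.06 beside 4.93. Values this close mean a small fitted difference in the CD8αα pair. An interaction with the sign of the CD4 IEL minus CD8αβ IEL difference, but larger, means an opposite fitted sign in the CD8αα pair. This held for Klrc1, Klrk1, Gzmk, Maf and Tnfsf8, among others. The CD8αα libraries had little Cd3e but high Cd3g, as described above, and Cd3d at 11.6 to 28.2 CPM. The interaction rests on these libraries as much as on the others.

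Helper and cytokine genes with positive interactions were Il17re (15.28) and Il23r (10.70), both fitted against libraries at or near 0, and Tnfsf8 (5.75), Il12rb2 (5.06), Maf (5.28), Furin (3.72), Tgfb3 (3.36), Zbtb7b (1.92), Runx1 (1.83), Il27ra (1.57) and Il12rb1 (1.07). The aryl hydrocarbon receptor group gave 1.82 for Ahr, 1.87 for Ahrr and 1.02 for Tiparp. Podnl1 had 5.06, Klrb1f 1.88, Cd69 0.93, and Pecam1 and Col1a2, from the stroma and vessel list, had 2.19 and 10.86. Pecam1 was at 499 to 749 CPM in the CD8αα libraries, above every CD4 IEL library. Col1a2 had 23 reads in the CD4 IEL libraries and 0 in the CD8αβ IEL libraries, so its value is also a fit near 0.

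NK-type receptor and granule genes had negative interactions, with Klrc1 at -7.09, Klrc2 at -5.94, Klrk1 at -5.32, Klrd1 at -3.40, Klrg1 at -2.99, Gzmk at -3.68, Crtam at -3.61, Prf1 at -1.63 and Nkg7 at -1.33. Chemokine and surface genes with negative values were Ccl3 (-2.27), Ccl5 (-2.22), Ltb (-2.43), Cd27 (-2.40), Icos (-2.20), Havcr2 (-2.50), Cd3d (-1.44) and Ly6c2 (-3.39). Icos was higher in CD4 IEL by 1.55, so its negative value means a larger fitted difference the same way in the CD8αα pair. Its level in the CD8αα libraries was only 0.460 to 11.5 CPM, so that larger difference is between low levels. Survival and cell cycle genes gave -1.30 for Bcl2a1d, -1.84 for Ube2c, -1.75 for Tk1 and -1.31 for Cdk1. The remaining negative values were -3.23 for H2-Aa, -2.66 for H2-Ab1, -3.57 for Car2 and -4.26 for S100a6. Klrg1, Cdk1 and S100a6 were chosen after their values were seen.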

How the results depend on the processing

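Over 17 alternatives, the total called kept within 1.5 times of 3655, and no named gene that was called changed direction. Of named genes that were not called, 6 changed sign with the length offset (Ifng, Gzmb, Tyrobp, Cd69, Cxcr6 and Itga1). The count of genes higher in CD4 IEL was 1061 in the fit of the 6 libraries alone and 1048 in that fit with a replicate block. DESeq2 called 817 genes for the interaction. Leaving out 1 library at a time gave 2649 to 3764 genes called, 1092 to 1669 higher in CD4 IEL, 1555 to 2095 higher in CD8αβ IEL and 200 to 368 for the interaction, with 200 without CD4 IEL replicate 2. The cause was not tested, beyond the fewer samples in these fits. The length offset lost the calls of 16 of 177 named genes and gained 1, and limma voom lost 13. The replicate numbers were not found to pair CD4 IEL with CD8αβ IEL libraries: deviations of same-numbered libraries correlated at 0.15, 0.12 and -0.10. These 2 groups came from different kinds of host. Whether the numbers pair either group with the CD8αα libraries from the same kind of host was not checked. With the replicate block over all 12 libraries 3814 genes were called, and 356 for the interaction. Depth limits genes near the floor, whose fitted differences are not bounds. The length offset and the fit of the 6 libraries without CD8αβ IEL replicate 1 were chosen after seeing the data.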

Other observations

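Other called genes, all chosen after their values were seen, are given as values. The tetraspan gene Ms4a4b was at 676, 542 and 422 CPM in CD4 IEL and 1653, 1489 and 2145 CPM in CD8αβ IEL (log2 difference -1.69, adjusted p = 0.0086). Slamf7, a receptor of killer and NK cells, was at 118, 107 and 97.2 CPM in CD4 IEL and 221, 207 and 244 CPM in CD8αβ IEL (log2 difference -1.06, adjusted p = 0.000288), and Cd7 was at 258, 503 and 282 CPM in CD4 IEL and 1022, 1354 and 948 CPM in CD8αβ IEL (log2 difference -1.67, adjusted p = 0.000215). S100a6, a calcium-binding protein gene, was at 16.9, 10.7 and 14.5 CPM in CD4 IEL and 94.0, 155 and 95.7 CPM in CD8αβ IEL (log2 difference -3.03, adjusted p = 5.69e-05). The summed level of the Y-linked genes Ddx3y, Eif2s3y, Kdm5d and Uty was 373 to 449 CPM in CD4 IEL and 234 to 374 CPM in CD8αβ IEL. Xist, of the inactive X chromosome, was at 0 to 36.4 CPM and 0.528 to 13.0 CPM.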
